A study of Rattus norvegicus with 17 samples.

Results

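Retinoid binding and metabolism genes were examined in the rat meibomian gland (MG), the gland of the eyelid margin that secretes the lipid of the tear film. The 9 genes were chosen by name, as the carriers Crabp1 and Crabp2, the synthesis enzymes Dhrs9, Aldh1a1, Aldh1a2 and Aldh1a3, the breakdown enzymes Cyp26a1 and Cyp26b1, and the receptor Rarg. Of these, 8 were found among the 17251 genes of the deposited table, and Dhrs9 was not analysed here. RNA-seq had been run on the MG of 17 female Sprague-Dawley rats aged 10 to 12 weeks, in 4 groups. Without UVB there were 4 WT and 5 P1.hMR rats (Control WT and Control P1.hMR), and with UVB 3 WT and 5 P1.hMR rats. The P1.hMR line carries the human gene for the mineralocorticoid receptor under its own proximal P1 promoter, which is active in every tissue that expresses the receptor and so not in the MG alone. The UVB rats had shaved upper eyelids irradiated daily for 5 days. The control rats had no model induced, and since shaving is described for irradiated rats, shaving and UVB cannot be told apart. The study's methods count eyes for the UVB groups, more of them than there are columns, and the study states for its animal work in general that both eyes of an animal, where used, were pooled as 1 sample.

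Retinol, or vitamin A, reaches tissues from the blood and is stored as esters. When it is needed it is oxidised to retinal and then, by the ALDH1A enzymes, to retinoic acid. Retinoic acid enters the nucleus and binds the RAR and RXR receptors at response elements in DNA, and CYP26 enzymes break it down, so its level is set locally by carriers, synthesis and breakdown. Retinoids hold back terminal differentiation of epidermal cells and lipid production in sebaceous glands, and the drug 13-cis retinoic acid is known for its effects on the MG, a modified sebaceous gland.

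The files give TPM, a relative transcript level corrected for transcript length, so levels of different genes can be compared. Between 12372 and 12737 genes reached 1 TPM in a rat. The human transgene NR3C2 was listed at 0 in each WT rat and at 5.31 to 9.31 TPM in the P1.hMR line. All 10 listed meibocyte markers were expressed, led by the wax ester synthase Awat2, and their summed level lay between 15966 and 20425 TPM in control rats and between 13387 and 15593 TPM in UVB rats. Markers of other cells were present too. Summed skeletal muscle markers (6 of 8 listed) lay between 1425 and 3297 TPM over all rats, and summed hair keratins (17 of 17 listed) between 927 and 1877 TPM in controls and between 433 and 1188 TPM after UVB. Macrophage markers (8 of 8 listed) ran from 92.6 to 168.6 TPM in controls and from 138.9 to 271.4 TPM after UVB. Mitosis markers (8 of 8 listed) ran from 99.8 to 136.1 TPM in controls and from 145.5 to 237.9 TPM after UVB. None of the markers listed was at 0 in every rat. In such bulk tissue, fewer cells of a type and less RNA per cell cannot be told apart.

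The 8 genes spanned a wide range of levels. Crabp2 was highest, at a mean of 218.6 TPM over the 17 rats, followed by Rarg at 140.7, Crabp1 at 83.1, Aldh1a1 at 18.1, Aldh1a3 at 12.0, Cyp26b1 at 5.58 and Aldh1a2 at 1.45 TPM. Cyp26a1 was last, at no more than 0.07 TPM in any rat. Each gene in this order exceeded the next in all 17 rats, with the exception of Aldh1a1 and Aldh1a3, which stood in this order in 13 rats and in the opposite order in 4. Crabp2 and Rarg ranked 603rd and 966th of the 17251 genes by mean level, while Aldh1a2 ranked 12141st. The carriers and the receptor were thus each above all of the ALDH1A and CYP26 enzymes in every rat.

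**Figure D1:**
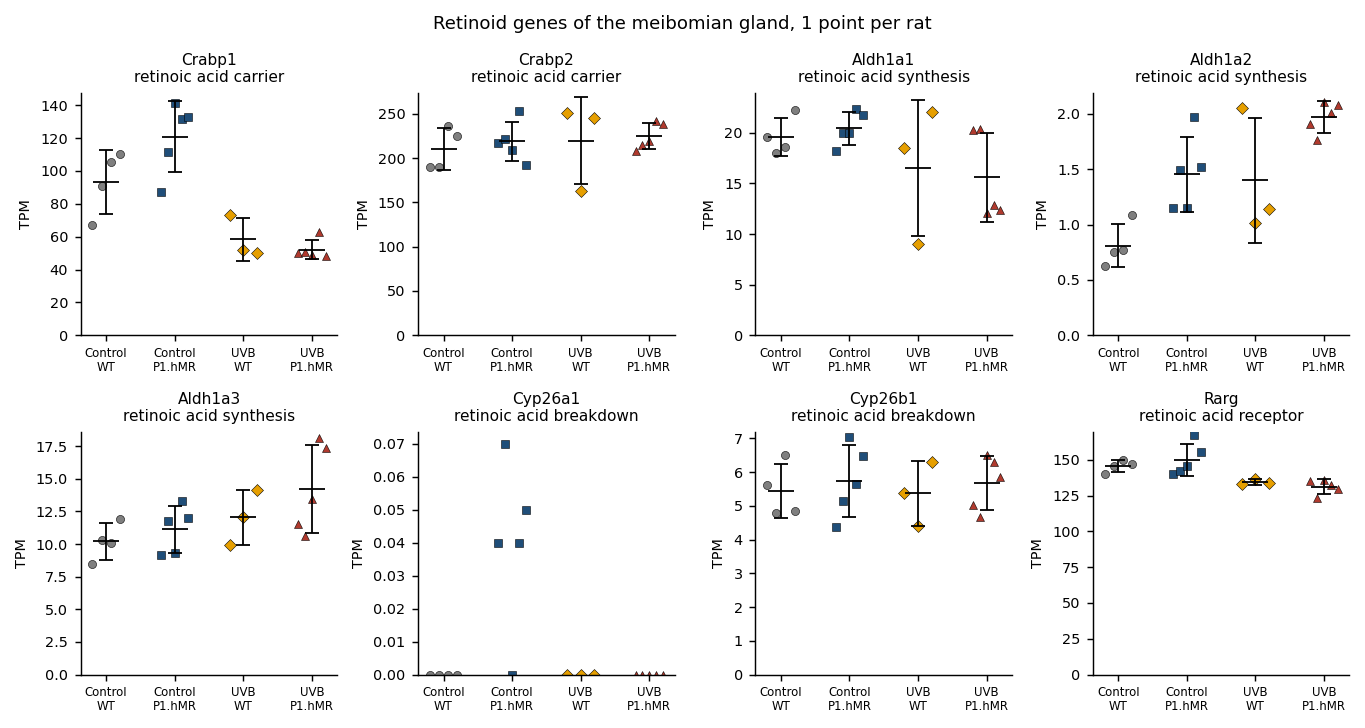
TPM of the 8 listed genes (y axis, linear from 0) in the 4 groups (x axis), with 1 point per rat and, except for Cyp26a1, the mean and SD as a bar with whiskers. Crabp1 is lower in both UVB groups, Rarg is slightly lower in them, and 4 UVB rats have the lowest values of Aldh1a1.

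Differences between groups were tested in 1 limma model on log2(TPM + 1) over the 13105 genes that reached 1 TPM in 3 or more rats, a filter 7 of the 8 genes passed and Cyp26a1 did not. A call needed both a p under 0.05 after Benjamini-Hochberg adjustment over all genes and a log2 fold change of 0.5 or more in size. Crabp1 was the single gene called after UVB in WT rats (1 of 7) and also the single gene called in P1.hMR rats (1 of 7). Of all genes tested, 7.91% were called in WT rats (3.92% higher, 3.98% lower) and 10.8% in P1.hMR rats (5.05% higher, 5.71% lower). The median log2 fold change of the 7 genes in WT rats was -0.02, against -0.01 in P1.hMR rats, beside 0.01 and -0.02 over all genes. The p-values measure the spread between the rats of these groups.

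Among the carriers, Crabp1 fell after UVB. CRABP1 binds retinoic acid in the cytoplasm and is known to pass it to the enzymes that break it down. It stood at 67.1, 90.9, 105.4 and 110.3 TPM without UVB in WT rats, against 73.4, 51.7 and 49.8 TPM with UVB. The groups overlapped by a single pair, Control WT 1 and UVB WT 1. In P1.hMR rats it stood at 87.1, 111.6, 141.5, 131.3 and 132.9 TPM without UVB and at 49.9, 50.7, 49.1, 62.6 and 48.2 TPM with UVB, and every UVB value lay below every control value. Over all genes tested, 27.2% had groups without overlap in P1.hMR rats, in either direction. The log2 fold change was -0.67 in WT rats (standard error 0.18, adjusted p = 0.0156 from limma) and -1.19 in P1.hMR rats (standard error 0.15, adjusted p = 2.23e-05 from limma). The mean of 93.4 ± 19.4 TPM (SD, n = 4) in Control WT compared with 58.3 ± 13.1 TPM (SD, n = 3) under UVB, a ratio of 0.624. For Control P1.hMR the mean of 120.9 ± 21.8 TPM (SD, n = 5) compared with 52.1 ± 5.95 TPM (SD, n = 5) under UVB, a ratio of 0.431.

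The promoter of Crabp1, as the gene among these that fell, is shown with its GC boxes (the letters GGGCGG, on either strand) in capitals. It covers 250 bases before to 50 bases after the start of the gene, from RefSeq in the build GRCr8, which is not the build rn7 of the files.
Crabp1 promoter, chr8:64047181-64047480, plus strand: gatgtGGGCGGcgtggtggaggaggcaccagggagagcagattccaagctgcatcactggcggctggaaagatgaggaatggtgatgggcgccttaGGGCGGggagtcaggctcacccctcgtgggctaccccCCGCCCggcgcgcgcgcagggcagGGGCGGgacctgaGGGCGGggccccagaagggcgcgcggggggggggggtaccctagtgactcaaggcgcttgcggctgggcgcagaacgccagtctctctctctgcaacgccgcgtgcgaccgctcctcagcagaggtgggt
The window held 5 GC boxes and was 70.7% G or C, against a median of 51.7% over all promoters. A GC box was found in 33.1% of the 33469 promoters of this length, and in at least 1 promoter of 7 of the 9 genes. A match describes these letters and is not evidence of a bound factor.

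The call for Crabp1 in WT rats rested on few animals. Without UVB WT 2 the adjusted p was 0.0648, and without UVB WT 3 it was 0.0687, at log2 fold changes of -0.59 and -0.57. Fitted on the 7 WT rats alone it was 0.0593, and with the hair keratin genes as a covariate 0.0932 at a log2 fold change of -0.75. Covariates of 2 further marker sets were tried after the data were seen. With the meibocyte genes the log2 fold change in WT rats was -0.60 (adjusted p = 0.016), and with the fibroblast genes it was -1.31 (adjusted p = 0.000352). For P1.hMR rats these covariates gave -1.18 and -1.64. In P1.hMR rats Crabp1 was called under every alternative fitted, with log2 fold changes from -1.64 to -1.12.

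Levels of other cell types moved with UVB beside Crabp1. Summed hair keratins were lower in the UVB groups, at 433 to 1188 TPM in UVB WT and 623 to 974 TPM in UVB P1.hMR rats, against 1148 to 1526 TPM in Control WT and 927 to 1877 TPM in Control P1.hMR rats. Summed fibroblast markers (6 of 7 listed, led by Dcn) overlapped between all groups, from 901.6 to 1412 TPM in Control WT, 1330 to 1532 TPM in Control P1.hMR, 1186 to 1917 TPM in UVB WT and 1279 to 1745 TPM in UVB P1.hMR rats. Summed goblet cell markers (4 of 5 listed) had medians of 29.4 TPM in Control WT and 16.7 TPM in UVB WT rats, and of 42.6 and 5.80 TPM in the P1.hMR groups, where the ranges of 26.8 to 81.9 and 3.86 to 24.3 TPM did not overlap. Summed melanocyte markers (4 of 5 listed) had medians of 88.9 and 55.9 TPM in WT rats without and with UVB, and of 104.6 and 77.5 TPM in P1.hMR rats. Endothelial and basal keratinocyte sums had higher medians after UVB, at 47.3 and 44.8 against 36.0 and 37.4 TPM for endothelium (4 of 5 listed) and at 11384 and 11428 against 9126 and 9197 TPM for basal keratinocytes (5 of 7 listed). Summed dermal papilla markers, of which 3 of 5 stayed under 1 TPM in every rat, lay between 17.2 and 20.3 TPM in all rats. Beyond the covariate fits given, the part of these cells in the level of Crabp1 was not tested.

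**Figure D2:**
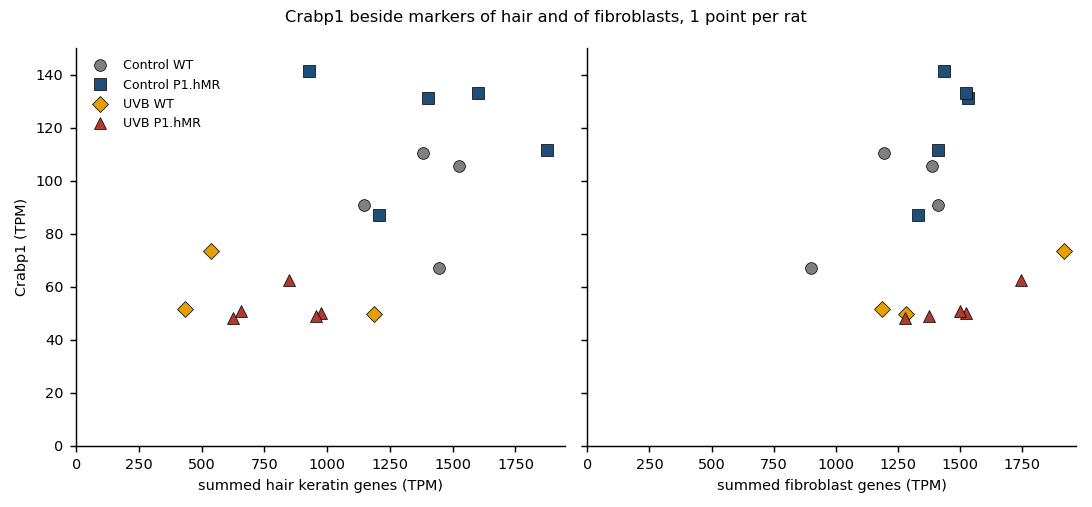
Crabp1 (y axis, TPM) against the summed TPM of 17 hair keratin genes (left) and 6 fibroblast genes (right), with 1 point per rat and the group as shape and colour. The UVB P1.hMR rats lie at 48.2 to 62.6 TPM of Crabp1 within the span of fibroblast sums from 1279 to 1745 TPM, and 7 of the 8 UVB rats have hair keratin sums of 974 TPM or less.

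Crabp2, which carries retinoic acid to its receptors in the nucleus, was not called. It stood at 190.0, 190.2, 235.6 and 225.1 TPM in Control WT and at 250.5, 163.3 and 244.9 TPM in UVB WT rats. In Control P1.hMR rats it stood at 217.0, 221.8, 209.5, 252.7 and 192.5 TPM and in UVB P1.hMR rats at 208.0, 215.1, 219.2, 241.6 and 238.6 TPM. The groups overlapped, and the log2 fold change was 0.04 in WT (95% interval -0.23 to 0.31) and 0.04 in P1.hMR rats (-0.18 to 0.26). The ratio of Crabp1 to Crabp2, a description chosen after the values were seen, lay between 0.353 and 0.490 in Control WT, 0.401 and 0.690 in Control P1.hMR, 0.203 and 0.317 in UVB WT and 0.202 and 0.259 in UVB P1.hMR rats. Every UVB rat was below every control rat in this ratio.

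The genes most like Crabp1 across rats, by the deviation of log2(TPM + 1) from the group mean, were Chd6 (Pearson's r = 0.91, Spearman's rho = 0.86), Utrn (r = 0.90, rho = 0.85) and Kcnab3 (r = 0.89, rho = 0.92), over 17 rats. Each point is 1 library, scaled to its own total, and these values are given as a description. Among the 7 genes themselves the deviations of Crabp1 were nearest to those of Aldh1a2 (r = 0.61, rho = 0.53), and with Crabp2 r was 0.39.

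Of the enzymes that make retinoic acid from retinal, none was called after UVB. Aldh1a1 stood at 19.6, 18.0, 18.6 and 22.2 TPM in Control WT and at 18.5, 9.0 and 22.0 TPM in UVB WT rats. In P1.hMR rats it stood at 18.16, 19.99, 20, 22.32 and 21.75 TPM without UVB and at 20.3, 20.4, 12.1, 12.9 and 12.4 TPM with UVB. UVB WT 2 and UVB P1.hMR 3, 4 and 5 lay under all controls, and the other 4 UVB rats lay within the range of the controls. The log2 fold change was -0.32 in WT (standard error 0.23, adjusted p = 0.348) and -0.40 in P1.hMR rats (standard error 0.19, adjusted p = 0.104).

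The same 4 UVB rats stood apart in Aldh1a7, a close relative of Aldh1a1 in rodents, which was named after its values were seen. Aldh1a7 stood at 2.62 TPM in UVB WT 2 and at 1.49, 1.75 and 1.54 TPM in UVB P1.hMR 3, 4 and 5. In UVB WT 1 and 3 it was 51.3 and 77.5 TPM, and in UVB P1.hMR 1 and 2 it was 74.1 and 81.9 TPM. The controls ran from 48.6 to 56.4 TPM in WT and from 46.6 to 83.8 TPM in P1.hMR rats, so that the 4 low rats lay far under all others. No control rat was low. The limma fold change of Aldh1a7 was -1.07 in WT (95% interval -3.64 to 1.49, adjusted p = 0.564) and -2.54 in P1.hMR rats (-4.66 to -0.41, adjusted p = 0.0554), and neither passed. The second passed with sample weights (adjusted p = 0.0246) and without UVB WT 2, UVB P1.hMR 1 or UVB P1.hMR 2 (adjusted p = 0.032, 0.0149 and 0.0124). Across the 17 rats, the deviations of Aldh1a1 and Aldh1a7 from their group means had r = 0.92 (rho = 0.90), a description over points that share a library. The transcripts of relatives can share reads, and the quantification could have split them, so both values are uncertain. The sum of the 2 genes was 11.6 TPM in UVB WT 2 and 13.6, 14.6 and 13.9 TPM in UVB P1.hMR 3, 4 and 5. In every other rat this sum was at least 66.6 TPM. The part of shared reads was not tested.

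**Figure D3:**
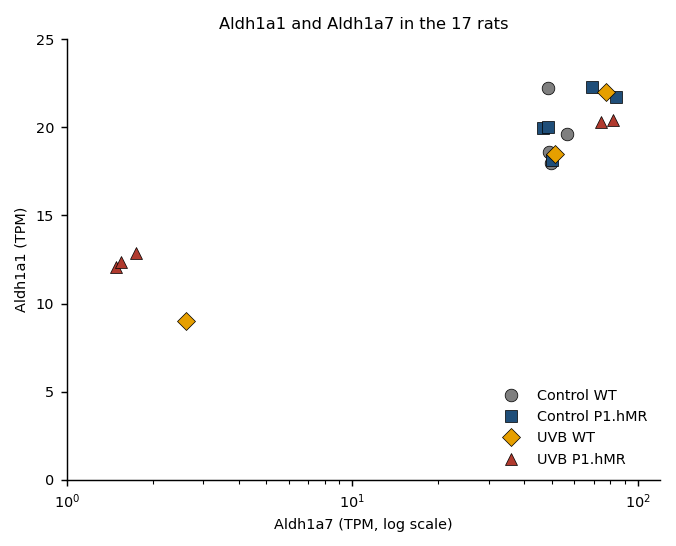
Aldh1a1 (y axis, TPM) against Aldh1a7 (x axis, TPM, log scale) in the 17 rats, with the group as shape and colour. The 13 rats at the right hold at least 46.6 TPM of Aldh1a7 and at least 18.0 TPM of Aldh1a1, and the 4 at the left, 1 UVB WT and 3 UVB P1.hMR rats, hold no more than 2.62 and 12.9 TPM.

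Aldh1a2, the enzyme that makes most retinoic acid in the embryo, was the lowest of the 3 and was near the filter of 1 TPM. It stood at 0.63, 0.75, 0.77 and 1.09 TPM in Control WT and at 2.05, 1.01 and 1.14 TPM in UVB WT rats. In Control P1.hMR rats it stood at 1.15, 1.49, 1.15, 1.97 and 1.52 TPM and in UVB P1.hMR rats at 1.91, 1.76, 2.11, 2.01 and 2.08 TPM. The order of the group means was Control WT, UVB WT, Control P1.hMR and UVB P1.hMR, with the middle pair at 1.40 and 1.46 TPM within their spread. After UVB the log2 fold change was 0.39 in WT (standard error 0.14, adjusted p = 0.0654) and 0.29 in P1.hMR rats (standard error 0.12, adjusted p = 0.0684), and neither passed. In WT rats it passed with a pseudocount of 0.1 (log2 fold change 0.68, adjusted p = 0.0498) and without UVB WT 2 (0.50, adjusted p = 0.0405). The added 1 TPM is large beside this gene's level.

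Aldh1a3, the third synthesis enzyme and one found in many epithelia, stood at 8.45, 10.3, 10.1 and 11.9 TPM in Control WT and at 9.94, 12.1 and 14.1 TPM in UVB WT rats. It stood at 9.18, 11.8, 9.35, 13.3 and 12.0 TPM in Control P1.hMR and at 11.5, 10.6, 13.5, 18.1 and 17.4 TPM in UVB P1.hMR rats. The groups overlapped, and the log2 fold changes of 0.22 (95% interval -0.15 to 0.59) and 0.31 (0.00 to 0.62) had adjusted p = 0.406 and 0.101 from limma. The 3 enzymes together lay between 22.1 and 37.6 TPM in every rat. Aldh1a1 gave between 59.1% and 68.4% of this sum in 13 rats, and between 38.9% and 43.6% in UVB WT 2 and UVB P1.hMR 3, 4 and 5, where Aldh1a3 gave between 48.7% and 54.9%.

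Of the enzymes that break retinoic acid down, Cyp26b1 did not differ beyond the spread between rats. It lay at 5.62, 4.80, 6.49 and 4.85 TPM in Control WT, 5.38, 4.40 and 6.31 TPM in UVB WT, 4.37, 5.13, 7.05, 5.63 and 6.47 TPM in Control P1.hMR, and 5.02, 4.68, 6.49, 6.31 and 5.85 TPM in UVB P1.hMR rats. The groups overlapped throughout. The log2 fold change was -0.02 in WT (95% interval -0.33 to 0.29) and -0.01 in P1.hMR rats (-0.26 to 0.25), and both changed sign under some alternatives. Cyp26a1, the enzyme that retinoic acid itself is best known to switch on, was listed at 0 in all 4 Control WT, 3 UVB WT and 5 UVB P1.hMR rats. In Control P1.hMR rats it was listed at 0.04, 0.07, 0, 0.04 and 0.05 TPM. The depth behind these values is unknown, and no fold change or test is given.

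A response element of retinoic acid receptors is a direct repeat of a hexamer with 5 bases between (DR5). It was searched on both strands with the hexamer AGGTCA and its variants, which were AGTTCA together with GGGTCA together with GGTTCA. Of 33469 promoters, 128 held it, or 0.382%. They included Cyp26a1 and Rarb, the promoters of 2 of the 50 retinoid genes searched, and their windows are shown with the DR5 in capitals, because these genes are read as targets of the pathway.
Cyp26a1 promoter, GRCr8 chr1:244883572-244883871, plus strand: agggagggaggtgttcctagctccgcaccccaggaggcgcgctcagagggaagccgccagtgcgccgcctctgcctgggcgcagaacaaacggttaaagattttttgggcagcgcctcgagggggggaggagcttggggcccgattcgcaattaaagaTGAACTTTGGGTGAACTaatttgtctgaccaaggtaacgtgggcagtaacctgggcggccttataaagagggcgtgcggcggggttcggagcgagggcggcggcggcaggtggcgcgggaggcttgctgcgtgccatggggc
Rarb promoter, GRCr8 chr15:11336142-11336441, plus strand: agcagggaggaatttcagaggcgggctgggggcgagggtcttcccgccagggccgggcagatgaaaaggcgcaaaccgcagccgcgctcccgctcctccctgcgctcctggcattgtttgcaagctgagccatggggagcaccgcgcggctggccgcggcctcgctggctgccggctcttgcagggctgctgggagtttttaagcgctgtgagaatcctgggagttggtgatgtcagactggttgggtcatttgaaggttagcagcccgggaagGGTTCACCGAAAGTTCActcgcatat
In Cyp26a1 the repeat lies at bases 159 to 175 of the window, and in Rarb at bases 275 to 291. The same hexamers at spacings of 1 and 2 bases (DR1 and DR2) were found in 0.233% and 0.170% of promoters and in none of the retinoid genes. A lack of matches says only that these letters are not in the window.

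The values of Rarg, the main retinoic acid receptor of epidermis, lay slightly lower after UVB. It stood at 139.8, 145.6, 149.5 and 147.0 TPM in Control WT and at 133.3, 136.5 and 133.5 TPM in UVB WT rats. In Control P1.hMR rats it stood at 140.0, 142.1, 145.4, 167.2 and 155.4 TPM and in UVB P1.hMR rats at 135.1, 123.4, 135.6, 132.6 and 129.7 TPM. In both genotypes every UVB rat was below every control rat. Groups without overlap, in either direction, were found for 26.6% of all genes tested in WT rats, against 27.2% in P1.hMR rats. The log2 fold change was -0.11 in WT (standard error 0.05, adjusted p = 0.153) and -0.19 in P1.hMR rats (standard error 0.05, adjusted p = 0.00377). The second was past the p threshold and under the fold change threshold. At any size of change, 21.5% of all genes passed the p threshold in WT rats, against 39.1% in P1.hMR rats, and of the 7 retinoid genes 1 did in WT and 2 did in P1.hMR rats.

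**Figure D4:**
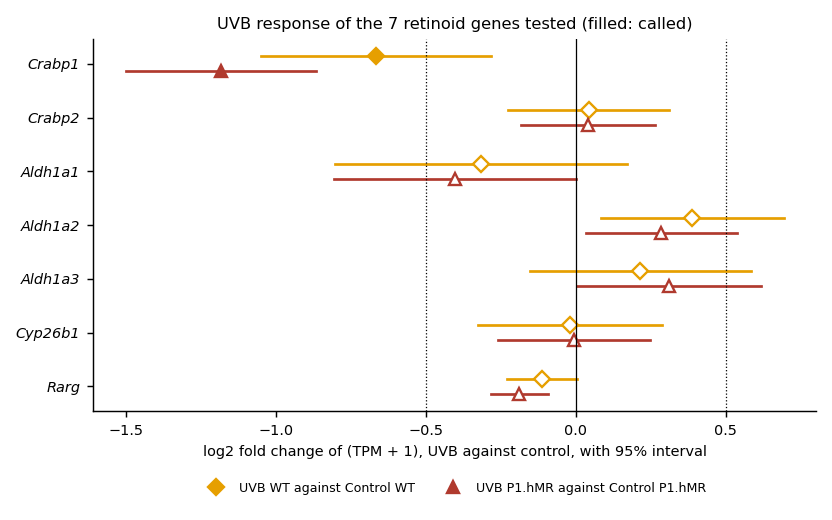
Log2 fold change of (TPM + 1) after UVB (x axis) of the 7 genes tested (y axis), in WT (diamonds) and P1.hMR rats (triangles), with 95% intervals, filled where called. Crabp1 is filled in both genotypes, at -0.67 and -1.19, and the dotted lines mark the threshold of 0.5.

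The comparisons of genotype asked whether the transgene changed these genes with or without UVB. They use the same rats as the comparisons of UVB. None of the 7 genes was called in either, and of all genes 0.00763% were called without UVB and 0.0229% with UVB. Without UVB Aldh1a2 did not pass the test, although its mean in P1.hMR rats was 1.46 ± 0.34 TPM (SD, n = 5) against 0.81 ± 0.20 TPM (SD, n = 4), and the groups did not overlap, as for 1.03% of all genes. The log2 difference was 0.44 (standard error 0.13, adjusted p = 0.998 from limma), which ranked 25 of the 13105 genes by unadjusted p. Under UVB it was 0.33 (standard error 0.14, adjusted p = 0.416), and the groups overlapped, while 5.87% of all genes did not overlap there. For Crabp1 the difference of P1.hMR from WT rats without UVB was 0.37 (standard error 0.16, adjusted p = 0.998), and with UVB the difference was -0.14 (standard error 0.17, adjusted p = 0.816).

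The interaction asked whether the UVB response differed between genotypes. For Crabp1 the response of P1.hMR rats differed from that of WT rats by -0.52 on the log2 scale (95% interval -1.01 to -0.02), with an unadjusted limma p of 0.0423 and an adjusted p of 0.711. The larger fall in P1.hMR rats was thus not shown to differ from that in WT rats. The other 6 genes had interaction terms between -0.10 and 0.10 and adjusted p of at least 0.872. By limma, 0 of the 13105 genes were called (0.00%), and 907 had an unadjusted p under 0.05.

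The wider retinoid pathway was read from a list of 63 further genes, of which 55 were listed and 49 were tested. After UVB, 8 were called higher and 2 lower in WT rats, and for P1.hMR rats 10 were higher and 6 lower. The remaining 39 and 33 were not called. Of all genes, 3.92% were higher and 3.98% lower in WT rats, and 5.05% and 5.71% in P1.hMR rats, so the 2 of 49 called lower in WT rats were near the share of all genes. The median log2 fold change of the 49 genes in WT rats was 0.04, against -0.04 in P1.hMR rats.

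The pathway list and its roles were chosen with earlier results of these data known, so counts by role are a description. The role of transport and storage of retinol includes genes that also handle other lipids, such as Lpl, Dgat1 and Fabp5. A particular part of retinol storage was not tested. Most of the genes called higher were listed under transport and storage. Of 11 such genes tested, 6 were called higher and 0 lower in WT, and 6 higher and 1 lower in P1.hMR rats, and the median log2 fold change was 0.55 and 0.57. Lpl, the lipase that helps tissues take up retinyl esters and fatty acids from lipoproteins, had the largest rise of these. It ran from 12.9 to 17.7 TPM in Control WT and from 35.2 to 37.7 TPM in UVB WT rats, and from 13.3 to 17.3 and from 29.8 to 47.4 TPM in P1.hMR rats, with log2 fold changes of 1.28 (standard error 0.14, adjusted p = 3.86e-05) and 1.43 (standard error 0.12, adjusted p = 5.4e-07).

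Among enzymes that esterify retinol, Dgat1 and Lrat rose as well. Dgat1, which makes triglycerides and can esterify retinol in skin, went from 15.4 to 17.3 TPM in Control WT rats to between 24.0 and 25.4 TPM in UVB WT rats, with a log2 fold change of 0.60, and of 0.75 in P1.hMR rats. Lrat, the enzyme dedicated to retinyl esters, stood at 2.18, 1.12, 2.33 and 1.58 TPM in Control WT and 3.45, 2.27 and 3.59 TPM in UVB WT rats, with 1 overlapping UVB rat, and at no more than 2.26 TPM in Control and no less than 2.85 TPM in UVB P1.hMR rats. Its log2 fold changes were 0.56 (adjusted p = 0.0198) and 0.63 (adjusted p = 0.00135). In WT rats this call was lost without Control WT 2, UVB WT 1 or UVB WT 3 (adjusted p up to 0.0835), with only the groups compared (0.101) and with the skeletal muscle covariate (0.0531). Groups without overlap, in either direction, were found for 26.6% of all genes in WT and 27.2% in P1.hMR rats.

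Binding proteins of retinol and fatty acids rose, while the receptor Stra6 fell in P1.hMR rats. Rbp2, a cytoplasmic retinol carrier, rose by 0.63 in WT rats and by 0.57 in P1.hMR rats. Its values went from at most 59.8 TPM to at least 71.0 TPM in WT rats. In P1.hMR rats they went from at most 69.3 to at least 79.6 TPM. The groups of Rbp2 did not overlap, as for 26.6% of all genes in WT and 27.2% in P1.hMR rats. Rbp7, a carrier of the same family, rose by 0.68 (adjusted p = 0.0447) and 0.87 (adjusted p = 0.002), and its call in WT rats was lost in 10 of the 17 fits with a rat left out and under 7 other alternatives. Fabp5, which carries fatty acids and can carry retinoic acid to PPAR delta, was among the highest genes of the gland, at a mean of 3489 TPM, and rose by 0.55 and 0.60. In WT rats the call for Fabp5 was lost with the hair keratin covariate (0.47, adjusted p = 0.102) and without Control WT 4 or UVB WT 2 (0.49 and 0.48), and that for Rbp2 with the hair keratin covariate (adjusted p = 0.0562). Stra6, the receptor that takes retinol from its plasma carrier and which was named after its values were seen, went by -0.25 in WT (adjusted p = 0.523) and fell by 0.74 in P1.hMR rats (adjusted p = 0.012), where the groups overlapped. With the hair keratin covariate Stra6 in P1.hMR rats was -0.41 (adjusted p = 0.249).

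Over all genes tested, 3.98% were called lower in WT rats and 5.71% in P1.hMR rats, where 5.05% were called higher. Of the 12 enzymes of retinol and retinal tested, 1 was called lower in both genotypes. This was Adh7, an alcohol dehydrogenase that oxidises retinol, which went from 94.3 to 123.3 TPM in Control WT to between 66.3 and 80.5 TPM in UVB WT rats, with a log2 fold change of -0.55 (adjusted p = 0.0215), and changed by -0.77 in P1.hMR rats (adjusted p = 0.000286). In WT rats the call was lost when Control WT 3, Control WT 4, UVB WT 1 or UVB WT 2 was left out (adjusted p up to 0.0818), with sample weights (0.0572) and with the skeletal muscle (0.0663) or hair keratin covariate (0.274). In P1.hMR rats 1 further enzyme was called higher, Sdr16c6, which was named after its values were seen and stood at 8.07 to 19.8 TPM without and 17.9 to 29.5 TPM with UVB (log2 fold change 0.57, adjusted p = 0.0289). That call was lost with the hair keratin or the skeletal muscle covariate and without Control P1.hMR 4 or UVB P1.hMR 2 (adjusted p from 0.0735 to 0.118). Dhrs3, which returns retinal to retinol and is known to be induced by retinoic acid, was named after its values were seen. It changed by -0.30 in P1.hMR rats (adjusted p = 0.00353 from limma), under the fold change threshold, and by -0.06 in WT rats (adjusted p = 0.645). In P1.hMR rats its groups did not overlap, as for 27.2% of all genes, with every UVB value below every control value.

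Of the 12 receptors and cofactors tested, 0 were called in WT rats, where 7.91% of all genes were called. For P1.hMR rats, where 10.8% of all genes were called, 1 was called. This was Rxrg, a retinoid X receptor, which stood at 2.24, 2.42, 2.83, 3.67 and 2.63 TPM in Control P1.hMR and at 1.49, 1.55, 1.76, 1.44 and 1.43 TPM in UVB P1.hMR rats, a log2 fold change of -0.56 (adjusted p = 0.00225). Without Control P1.hMR 4 it was -0.48, and with the skeletal muscle genes as a covariate -0.42, both under the threshold. In WT rats it was -0.44 (adjusted p = 0.0458), also under the threshold, and it was called with a pseudocount of 0.1 (-0.63) and without Control WT 4 (-0.53) or UVB WT 1 (-0.63). Rarb, the receptor whose promoter with a DR5 is printed above and which was named after its values were seen, stood at 4.32, 3.91, 5.92, 6.20 and 4.27 TPM in Control P1.hMR and at 3.58, 3.08, 2.92, 3.47 and 3.04 TPM in UVB P1.hMR rats. The groups did not overlap, as for 27.2% of all genes, and the log2 fold change of -0.47 (adjusted p = 0.00417) was just under the threshold. It was past it with a pseudocount of 0.1 (-0.58), with the hair keratin covariate (-0.63) and without Control P1.hMR 1, 2 or 5 or UVB P1.hMR 1 (-0.54 to -0.51). In WT rats it was -0.22 (adjusted p = 0.288), with 4.23, 4.13, 5.19 and 5.19 TPM in Control WT and 4.41, 4.29 and 3.04 TPM in UVB WT rats.

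Genes known to respond to retinoic acid in epithelia did not move one way. Of 6 tested that rise with it, 1 was called higher in WT, while in P1.hMR rats 2 were higher and 1 was lower. Over all genes, 3.92% were called higher in WT rats, against 5.05% higher and 5.71% lower in P1.hMR rats. Rarres2, which encodes the chemoattractant chemerin, ran from 33.5 to 45.3 TPM in Control WT and stood at 144.1, 62.5 and 76.3 TPM in UVB WT rats, with a log2 fold change of 1.15 (adjusted p = 0.00127), and rose by 1.16 in P1.hMR rats (adjusted p = 7.56e-05). Tgm2, tissue transglutaminase, went by -0.58 in WT (adjusted p = 0.162) and fell by 0.97 in P1.hMR rats (adjusted p = 0.00442), where the controls stood at 88.6, 97.3, 49.7, 163.4 and 165.6 TPM and all UVB rats between 43.0 and 60.2 TPM. With the hair keratin covariate Tgm2 in P1.hMR rats was -0.64 (adjusted p = 0.116), while in WT rats it was called with only the groups compared (adjusted p = 0.0188) and without Control P1.hMR 3 (adjusted p = 0.0459). Hbegf, an epidermal growth factor receptor ligand named after its values were seen, was the second gene called higher in P1.hMR rats (0.54, adjusted p = 0.0255). Its call was lost with the hair keratin covariate and without Control P1.hMR 1 or 3 or UVB P1.hMR 3, 4 or 5 (adjusted p from 0.0513 to 0.0702).

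Of 6 tested genes that fall with retinoic acid in keratinocytes, 1 was called higher and 1 lower in WT, while in P1.hMR rats 1 was higher and 2 were lower. The shares over all genes were 3.92% higher and 3.98% lower in WT rats, and 5.05% and 5.71% in P1.hMR rats. Tgm1, the transglutaminase of the cornified envelope, rose by 0.59 (adjusted p = 0.0165) and 0.73 (adjusted p = 0.00048). In WT rats the call was lost with the hair keratin covariate (adjusted p = 0.0548), the skeletal muscle covariate (adjusted p = 0.0827) and without UVB WT 3 (0.43, adjusted p = 0.0902). Ivl, its substrate involucrin, stood at 12.3, 12.9, 16.0 and 15.1 TPM in Control WT and 6.61, 1.57 and 8.90 TPM in UVB WT rats, with a log2 fold change of -1.37 (adjusted p = 0.00736), and changed by -1.25 in P1.hMR rats (adjusted p = 0.00161). With the hair keratin genes as a covariate the adjusted p for Ivl in WT rats was 0.317, against 0.0678 in P1.hMR rats, and fitted on the WT rats alone it was 0.0626. Krt2, a keratin of upper epidermis named after its values were seen, fell by 0.67 in P1.hMR rats (adjusted p = 0.00808 from limma), a call lost with the hair keratin covariate (adjusted p = 0.091). Its levels were near the filter of 1 TPM, at 0.77 to 3.04 TPM in Control P1.hMR and 0.40 to 1.07 TPM in UVB P1.hMR rats, and the groups overlapped. The added 1 TPM is large beside them. In WT rats Krt2 was -0.62 (adjusted p = 0.0553) and was called under 6 alternatives, which were both scalings, only the groups compared and the fits without Control WT 1, Control P1.hMR 1 or Control P1.hMR 4. Of the 2 other CYP genes tested, Cyp2s1 and Cyp1b1, which the list grouped with the breakdown enzymes, neither was called. In neither comparison of genotype, nor in the interaction, was any of the 49 genes called.

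**Figure D5:**
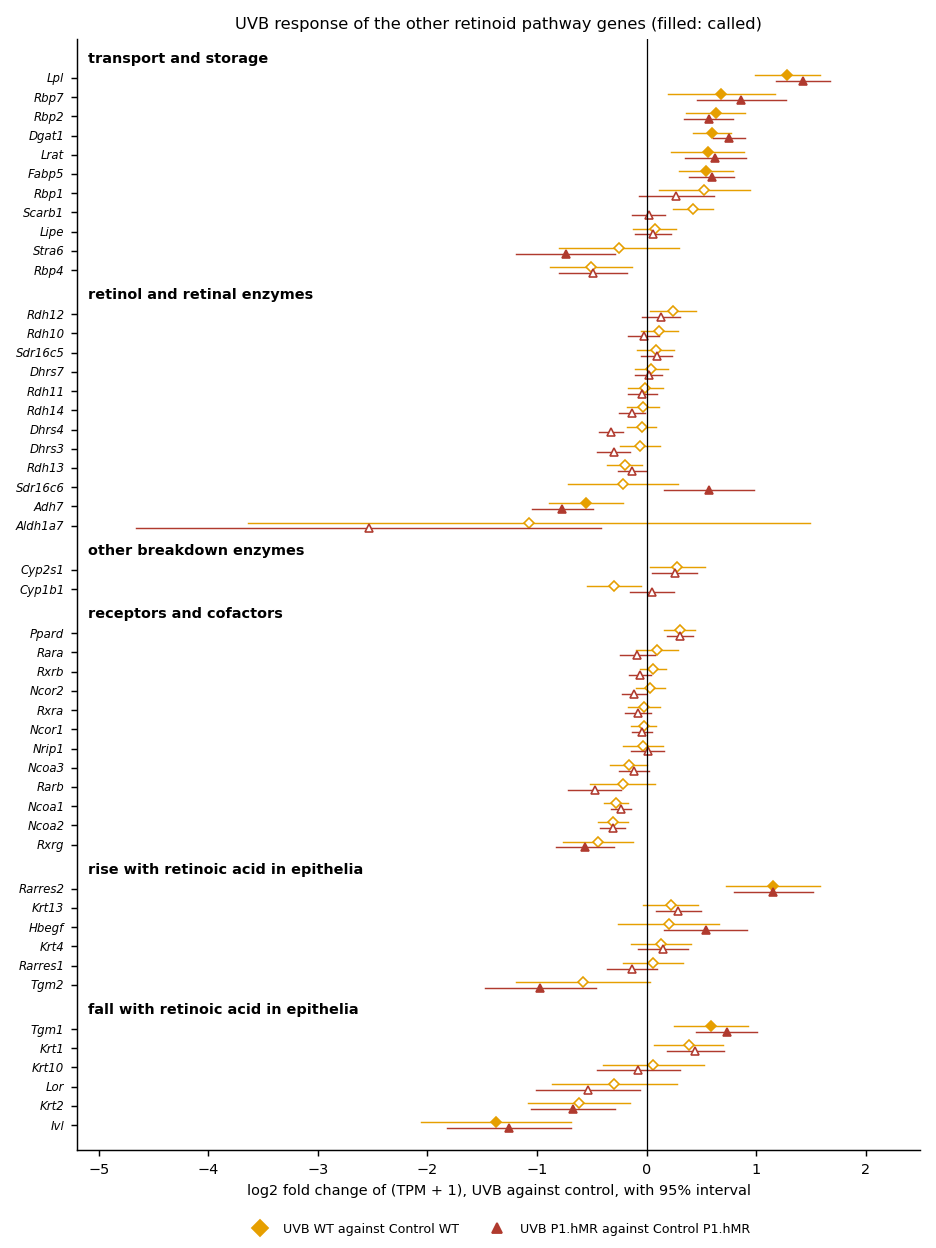
Log2 fold change of (TPM + 1) after UVB (x axis) of the 49 tested pathway genes (y axis, by role and, within a role, by the value in WT rats), in WT (diamonds) and P1.hMR rats (triangles), with 95% intervals, filled where called. The 6 filled genes at the top are of transport and storage, from Lpl at 1.28 and 1.43 to Fabp5 at 0.55 and 0.60, and the widest intervals are those of Aldh1a7.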

How the data were processed

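RNA was extracted from dissected MG and sequenced by the authors. Per the study's methods, reads were checked with FastQC, aligned to rn7 with STAR and quantified with RSEM, while the submitters' processing notes list FastQC, Trimmomatic, DRAGEN and Picard, so the aligner of the deposited table is not settled. The authors deposited TPM for 17251 genes and 17 rats, with decimal commas and 2 decimals. No further normalization is stated, and columns summed to between 804378 and 840817. TPM holds no counts, so the depth of each rat's library is unknown here and no counting interval is given. Transcripts of relatives may share reads.

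Columns were assigned by the library names of the labels, and no 2 columns were identical. Values were analysed as log2(TPM + 1), which understates changes of low genes. The 13105 genes that reached 1 TPM in 3 or more rats were fitted with limma 3.58.1 in R 4.3.3, in 1 model holding the 4 group means and a variance trend, two-sided, with Benjamini-Hochberg adjustment over all genes. The threshold was that of the study's methods, whose count test needs counts. The model was run on simulated data with independent errors for each gene. Such data hold no correlation between genes and no shifts in cell content. Sums, ratios, correlations and figures were made with Python 3.11.15, pandas 2.3.3 and matplotlib 3.10.9. Promoters were matched by symbol, 9 of 9 genes. Alternatives were the pseudocount, the filter, scaling, sample weights, a fit of the compared groups alone, no trend, marker covariates, thresholds, a replicate block and each rat left out.

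The members and lists were chosen with earlier results of these data known. Pathway genes were named where called in at least 1 UVB comparison, up to the 12 smallest adjusted p, and the 3 genes most like a member called in both. Further genes are marked as named after their values were seen.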

Additional observations from a re-analysis of the deposited data

Results flagged for a closer look

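Within groups of 4 or 5 rats, 22 combinations of gene and group were searched for a rat far from the rest of its group, and chance flags about 1 in 20. The 1 found was Crabp1 in UVB P1.hMR 4, at 62.59 TPM, where the other 4 rats of the group lay between 48.19 and 50.66 TPM. The gap to the nearest rat was 0.828 of the group's range. The same rat had the highest summed fibroblast markers of its group, at 1745 TPM, and its Crabp1 was still below every Control P1.hMR rat. UVB WT has 3 rats and was not searched.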

How the results depend on the processing

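Of the values for the 7 genes under all alternatives, 911 kept direction and side of the threshold, 55 changed sign, 4 lost the call and 2 gained it. The number of these genes called in UVB WT rats, 1, became 2 with a pseudocount of 0.1, 0 with only the groups compared, 0 with the hair keratin genes as a covariate and 0 at a log2 fold change of at least 1, and was 0 to 1 with a rat left out (0 without UVB WT 3). Without UVB WT 2 the 1 gene called was Aldh1a2 in place of Crabp1. In P1.hMR rats it became 2, with Rarg, without a fold change threshold. The causes were not tested.

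None of the values that changed sign was called. For UVB in WT rats, Crabp2 was -0.0058 with quantile normalization and Cyp26b1 0.0061 with sample weights. With the hair keratin covariate, Aldh1a1 was 0.097, Cyp26b1 0.13, Stra6 0.22 and Aldh1a7 0.30. For UVB in P1.hMR rats, Cyp26b1 was 0.014 with quantile normalization, 0.011 with median-of-ratios scaling and 0.10 with the hair keratin covariate, and Scarb1 was -0.019 with quantile normalization. For genotype under UVB, Aldh1a1 was 0.017 with the skeletal muscle covariate. For the interaction, Crabp2 was 0.0077 with quantile normalization, 0.021 with median-of-ratios scaling and 0.0029 with sample weights, and Cyp26b1 was -0.0077 with sample weights and -0.033 with the hair keratin covariate.

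With a rat left out, the ranges that crossed 0 were, for UVB in WT rats, -0.065 to 0.24 for Crabp2, -0.56 to 0.044 for Aldh1a1, -0.13 to 0.093 for Cyp26b1, -0.061 to 0.48 for Hbegf and -1.91 to 0.31 for Aldh1a7. In P1.hMR rats they were -0.0038 to 0.094 for Crabp2, -0.084 to 0.062 for Cyp26b1 and -0.014 to 0.061 for Scarb1. For genotype they were -0.011 to 0.13 for Cyp26b1 in controls and, under UVB, -0.24 to 0.031 for Crabp1, -0.14 to 0.16 for Crabp2, -0.39 to 0.21 for Aldh1a1 and -0.042 to 0.18 for Cyp26b1. For the interaction they were -0.20 to 0.11 for Crabp2, -0.45 to 0.15 for Aldh1a1, -0.22 to 0.083 for Aldh1a2, -0.026 to 0.21 for Aldh1a3 and -0.10 to 0.12 for Cyp26b1.

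The replicate numbers did not pair the rats, since same-numbered deviations correlated at -0.19 to 0.24 and not every rat was nearest its own number. With the replicate block Crabp1 was -0.59 (adjusted p = 0.0346 from limma) in WT and -1.19 (adjusted p = 8.31e-05) in P1.hMR rats, the genes called stayed at 1 and 1, and the interaction of Aldh1a3 was -0.0076.

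Over all genes, the 1036 called in WT rats became 690 with a mean of at least 5 TPM, 566 with the hair keratin covariate, 2820 without and 219 with a doubled fold change threshold. The 1410 in P1.hMR rats became 882 with a mean of at least 5 TPM, 5123 without and 300 with a doubled fold change threshold. With genotype, the 1 gene called in controls became 0 to 6 and the 3 under UVB became 0 to 52, the 52 without UVB WT 3, and the interaction called 0 to 8, the 8 also without UVB WT 3. The pathway genes, refitted as alternatives chosen after the data were seen, numbered in WT rats 2 to 10 called higher and 0 to 5 lower. In P1.hMR rats the 10 called higher became 2 with a doubled fold change threshold, and the 6 called lower became 3 with a mean of at least 5 TPM, 12 without and 1 with a doubled fold change threshold. Aldh1a2 and Cyp26a1 could not be fitted with a mean of at least 5 TPM, nor the interaction with only the groups compared. The called pathway genes Rxrg, Krt2, Stra6 and Lrat, at means of 2.22, 1.29, 4.30 and 2.51 TPM, were also removed by the filter of 5 TPM. They were thus not tested under it. Depth is unknown, so what it limits cannot be given.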

Other observations

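Among the 49 pathway genes, the 2 with the smallest unadjusted p for the interaction, chosen after their values were seen, were Scarb1 and Dhrs4. Scarb1, a receptor that takes up lipoprotein cholesterol and carotenoids, had a log2 fold change after UVB of 0.43 in the WT groups (adjusted p = 0.00276) but 0.02 in the P1.hMR groups (adjusted p = 0.852), both under the fold change threshold. Without Control WT 3 the first was 0.51 and past it, and the second changed sign under some alternatives. Its levels ran from 247.9 to 319.7 TPM in Control WT and from 346.4 to 376.9 TPM in UVB WT rats, while both P1.hMR groups overlapped. Dhrs4, a reductase of retinal, had -0.05 in the WT groups (adjusted p = 0.641) against -0.32 in the P1.hMR groups (adjusted p = 0.000149). The differences between the responses were -0.41 and -0.28, with unadjusted limma p of 0.00201 and 0.00307 and an adjusted p of 0.704 for both, so neither passed.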
